A study of Rattus norvegicus with 6 samples.

Results

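Back skin of Sprague-Dawley rats, an outbred laboratory strain, that carried a rash under afatinib was compared with back skin of rats that carried a rash under gefitinib. The 4 libraries were chosen by their labels, 2 for each drug, out of 6 in the series. The other 2 came from untreated rats of the same strain, entered no test, and are given only as reference levels. Gefitinib had been given by mouth once a day at 80 mg/kg and afatinib by mouth once a day at 30 mg/kg, in both groups until the animals showed a rash. The doses therefore differ, the number of days is not given in the labels, and drug, dose and time cannot be told apart in any value below. The labels do not say that the libraries of a group came from separate animals, so p-values measure only the spread between these libraries, which may be technical.

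Both drugs inhibit the epidermal growth factor receptor (EGFR), a receptor tyrosine kinase that keeps basal keratinocytes and the outer cells of the hair follicle growing and signals through the ERK kinases to induce its own feedback inhibitors. Gefitinib is an anilinoquinazoline that binds the kinase pocket reversibly. Afatinib has an anilinoquinazoline core too, but carries a reactive side group with which it bonds covalently to EGFR and to its relatives ERBB2 and ERBB4. An inflamed rash with neutrophils around the follicles, a weakened barrier and altered hair growth are known effects of blocking EGFR in skin.

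The 4 rash libraries held between 17206456 and 20560892 counts, of which at least 99.89% fell on the 16158 genes tested. The second afatinib library was closer to the gefitinib skins than to its own partner. Over all genes tested, the root mean square difference in log2 CPM (the counts of a gene relative to the library's total, scaled by the TMM method) was 0.976 between both afatinib libraries and 0.644 between afatinib 2 and gefitinib 1. Both gefitinib libraries were 0.693 apart. Afatinib 1 stood apart from all other rash skins, at 0.945 to 0.976, and it was about as far from the untreated libraries, at 1.00 and 0.988, whereas the other 3 rash libraries were 1.43 to 1.48 from them. Skeletal muscle genes, which come from the muscle sheet under rodent skin, took 15.3% of the counts of afatinib 1, against 5.46% in afatinib 2, 5.06% and 8.75% in the gefitinib libraries, and 20.5% and 19.0% in the untreated ones. Genes of the growing hair (shaft, inner root sheath and matrix) took 0.175% in afatinib 1, against 0.890% in afatinib 2, 1.03% and 0.693% under gefitinib, and 0.0182% and 0.0417% in untreated skin. The epidermal keratins Krt5 and Krt14 were abundant in all 4 rash libraries, at 1311 to 2043 CPM and 420 to 1508 CPM.

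**Figure D1:**
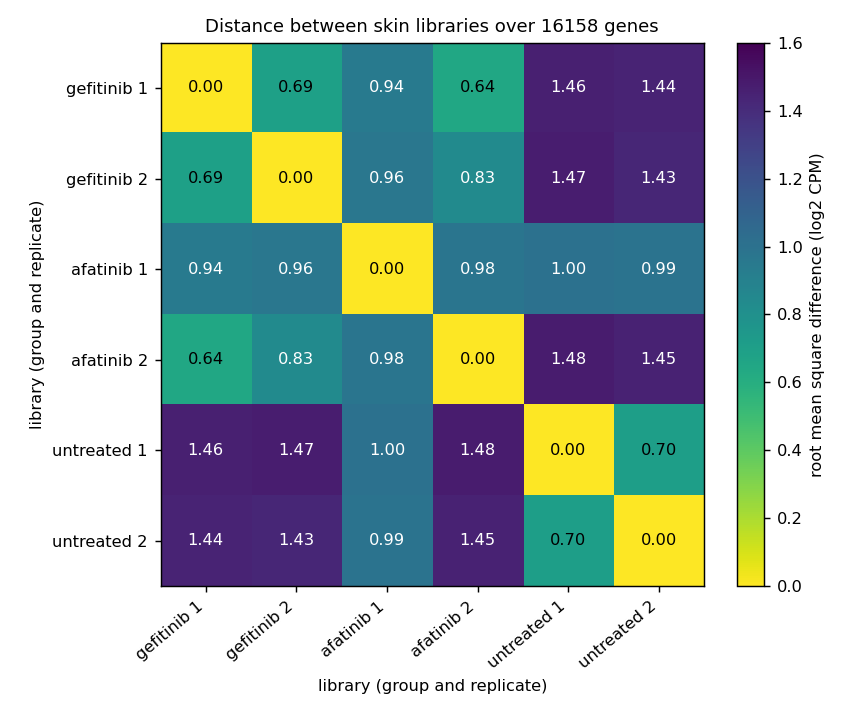
Root mean square difference in log2 CPM between each pair of libraries over 16158 genes; rows and columns are libraries, named by group and replicate, and darker cells are farther apart. Afatinib 2 and gefitinib 1 are the closest pair among all 6 libraries (0.64), and afatinib 1 is the only rash library within about 1.00 of untreated skin.

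No gene passed the test between afatinib and gefitinib skin: 0 of 16158 genes (0%) had an adjusted p under 0.05 by edgeR's quasi-likelihood test with Benjamini-Hochberg adjustment, and the smallest adjusted p was 0.467. At an unadjusted p under 0.05 there were 655 genes (4.05%), 430 higher with afatinib (2.66%) and 225 lower (1.39%). The limma-voom test also called 0 genes (0%), with 671 (4.15%) under 0.05 unadjusted, while DESeq2 called 29 (0.179%), of which 17 were higher with afatinib (0.105%) and 12 lower (0.0743%). DESeq2 had 813 genes (5.03%) under 0.05 unadjusted. The spread inside the afatinib pair was wider than that inside the gefitinib pair. More than 2-fold separated both afatinib libraries in 4071 genes (25.2%) and both gefitinib libraries in 1887 (11.7%), while the group means lay more than 2-fold apart in 1578 (9.77%). Means of 2 libraries vary less than single libraries, so the count for group means is not on the same footing. A missed threshold does not show that the skins were alike, since half-widths of the 95% intervals of the log2 fold changes had a median of 1.01. For 3997 genes (24.7%) the interval lay inside 2-fold in both directions. The libraries of the groups did not overlap for 2769 genes with afatinib above gefitinib (17.1%) and 3224 with afatinib below (20%), or 37.1% in all, and any single gene tested by exact permutation of 2 against 2 libraries can reach no two-sided p below 0.333. Because no gene passed, the genes below are described by their levels, with log2 fold changes (afatinib over gefitinib) and 95% intervals that missed the adjusted test.

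Among the 15 genes that lead on the afatinib side, secreted proteases and inflammatory enzymes stood next to genes of other kinds. Mmp13, collagenase-3 of matrix breakdown, was at 8.30 and 15.4 CPM in the gefitinib libraries and 49.8 and 77.6 in the afatinib libraries. Its log2 fold change was 2.43 (95% interval 1.41 to 3.45), and DESeq2 gave an adjusted p of 0.000583. Mmp9, the gelatinase that neutrophils and keratinocytes release, was at 8.02 and 13.9 CPM with gefitinib and 40.7 and 59.4 with afatinib, a log2 fold change of 2.19 (1.24 to 3.14; DESeq2 adjusted p = 0.00259). Both proteases were almost silent in untreated skin, at no more than 0.203 CPM, so all 4 rash skins lay above it and the afatinib pair lay above the gefitinib pair. Ptgs2, the inducible cyclooxygenase that starts prostaglandin synthesis, had 5.49 and 5.71 CPM with gefitinib and 16.1 and 23.5 with afatinib. Untreated skin had 0.968 and 0.406, and the log2 fold change between the drugs was 1.82 (0.94 to 2.71; DESeq2 adjusted p = 0.0243). Plau, the urokinase that activates plasminogen, read 14.5 and 11.6 CPM with gefitinib and 42.7 and 29.9 with afatinib. Here the order differed from Mmp13 and Mmp9, because untreated skin was the highest, at 70.4 and 44.7 CPM. Ifit1, an antiviral protein induced by interferon, was at 1.81 and 1.21 CPM with gefitinib and 10.01 and 7.41 with afatinib, a log2 fold change of 2.52 (1.34 to 3.69; DESeq2 adjusted p = 0.00644), with 0 and 0.0677 in untreated skin.

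G0s2, an inhibitor of the main triglyceride lipase, had nearly equal libraries within each group. It read 8.39 and 7.89 CPM with gefitinib and 36.1 and 32.9 with afatinib, with 4.76 and 4.74 in untreated skin, and its log2 fold change was 2.08 (1.39 to 2.78; DESeq2 adjusted p = 0.000268). Cytl1, a small secreted protein of cartilage, was at 13.2 and 15.8 CPM with gefitinib and 44.2 and 47.8 with afatinib, both below the untreated 93.7 and 114. Stard9, a kinesin of the spindle, followed that order with 12.1 and 10.7, then 33.5 and 30.3, then 66.0 and 38.7 CPM in untreated skin. Cpxm1, a secreted carboxypeptidase-like protein, ran the other way round, with the untreated libraries lowest at 28.6 and 23.3 CPM, gefitinib at 41.4 and 43.4 and afatinib at 87.3 and 110. For these 4 genes both afatinib libraries were alike, as the choice by small p favours.

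Myh8, the perinatal muscle myosin, was at 4.58 and 5.92 CPM with gefitinib and 29.4 and 16.6 with afatinib, and 19.8 and 16.9 in untreated skin (log2 fold change 2.13, 1.11 to 3.15). DESeq2 also called Myh3, the embryonic myosin, and Myl3, the slow myosin light chain, both named after their values were seen. Myh3 had 8.11 and 13.3 CPM with gefitinib and 182 and 29.1 with afatinib, and Myl3 had 63.6 and 66.8 with gefitinib and 593 and 139 with afatinib. In all 3, afatinib 2 was above both gefitinib libraries. Muscle genes took 15.3% and 5.46% of the afatinib counts against 5.06% and 8.75% with gefitinib, and the part of muscle content in these values was not tested. Over the whole list of 17 tested skeletal muscle genes the summed level was 45360 and 90930 CPM with gefitinib and 197600 and 45380 with afatinib, with no member at 0, and only Myh7, the slow myosin heavy chain, and Mybpc1 separated the groups.

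Several leading genes had low levels under 1 drug and higher levels under the other. Mrpl53, a protein of the mitochondrial ribosome on chromosome 4, had 28 and 29 counts with gefitinib and 1153 and 770 with afatinib, or 1.27 and 1.47 against 86.8 and 34.4 CPM. Untreated skin, at 0.887 and 1.42 CPM, matched the gefitinib level, and the log2 fold change of 5.46 (4.07 to 6.86; DESeq2 adjusted p = 9.57e-18) was the largest among the leading genes. Pcgf1, a Polycomb subunit whose start lies 31356 bases from that of Mrpl53, was reversed, with 77 and 162 counts under gefitinib and 1 and 6 under afatinib. Its levels were 3.49 and 8.19 CPM, then 0.0753 and 0.268, while untreated skin had 5.48 and 3.12. Of the 10 tested genes that start within 100 kb of Mrpl53, 1 other separated the groups upward (Dok1) and 1 downward besides Pcgf1 (Htra2), both by less than 1 on the log2 scale. Hprt1, the purine salvage enzyme on chromosome X, was at 0.408 and 0.708 CPM with gefitinib, 30.6 and 9.33 with afatinib, and 0.323 and 0.271 in untreated skin (log2 fold change 5.15, 3.28 to 7.01). Mff, which recruits the fission machinery to mitochondria, had 1.27 and 1.77 CPM with gefitinib and 13.0 and 18.8 with afatinib, with 2.82 and 5.69 in between in untreated skin. Haus1, a subunit of the augmin complex of the spindle, had 0.272 and 0.506 CPM with gefitinib and 2.71 and 6.11 with afatinib. Scart1, a scavenger receptor known from gamma-delta T cells, and Fuom, a fucose mutarotase, both lie on chromosome 1, where their starts are at 212695735 and 212563714. Scart1 was at 1.59 and 1.52 CPM with gefitinib and 10.9 and 6.38 with afatinib. Fuom went the opposite way with 4.08 and 1.77 CPM, then 0.151 and 0.0893, against 7.98 and 5.28 in untreated skin. Strand setting is not known and the strain is outbred, and whether gene models or differences between animals play a part in these values was not tested. DESeq2 called all 6 of Mrpl53, Pcgf1, Hprt1, Mff, Scart1 and Fuom, and Haus1 as well.

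Of the 15 leading genes on the gefitinib side, 3 encode keratin-associated proteins of hair. Krtap1-5, a keratin-associated protein that cross-links hair keratin, had 30.2 and 30.2 CPM with gefitinib and 4.22 and 3.57 with afatinib, a log2 fold change of -2.96 (-3.74 to -2.18; DESeq2 adjusted p = 1.45e-08). Untreated skin had 0.161 and 0, so both rash groups were above it. Both afatinib libraries were low here, at hair shares of 0.175% and 0.890% of counts against 1.03% and 0.693% with gefitinib, and the part of hair content in the difference was not tested. Keratin-associated proteins are a family of close copies, so the sharing of reads among them is uncertain. Krtap31-1 read 4.44 and 9.96 CPM with gefitinib and 0.527 and 0.491 with afatinib, and Krtap19-5 read 15.2 and 6.67, then 3.01 and 1.38. Kb15, a type II keratin, had 7.43 and 7.38 CPM with gefitinib and 1.51 and 2.23 with afatinib. Sp5, a transcription factor downstream of Wnt signalling, was at 2.63 and 3.49 CPM, then 0.452 and 0.803.

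The neighbours of Krtap1-5 on chromosome 10 did not all follow it. Of 16 other tested loci that start within 100 kb of it, 7 had both afatinib libraries below both gefitinib libraries, where 20% of all genes did, and 0 had them above. An unadjusted p under 0.05 was reached by 4 of the 7, where 1.39% of all genes were lower at that p. Krtap3-3 was at 25.0 and 37.8 CPM with gefitinib and 5.12 and 14.0 with afatinib, and Krtap2-4l at 13.7 and 21.3, then 3.24 and 8.39. Others were low in afatinib 1 alone: Krtap3-1 had 16.7 and 26.9 CPM with gefitinib, 2.64 in afatinib 1 and 23.2 in afatinib 2, and Krtap1-3 had 4.94 and 3.79, then 0.828 and 11.3. These neighbours were named after their values were seen. Near Krtap31-1, 4 of 7 tested loci were lower without overlap, all 4 predicted loci, and near Krtap19-5, 3 of 7, both beside the same 20%.

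The remaining leading genes lower with afatinib were of several kinds. Tm4sf4, a tetraspanin-like membrane protein, was at 22.6 and 24.0 CPM with gefitinib, 3.76 and 6.34 with afatinib and at most 0.0677 in untreated skin (log2 fold change -2.19, -3.14 to -1.25; DESeq2 adjusted p = 0.00261). Nim1k, a kinase of the AMPK family, read 17.3 and 17.9 CPM, then 4.44 and 5.18, against 1.45 and 0.610 in untreated skin. Mal2, a transport protein of polarised epithelium, read 18.0 and 17.3 CPM, then 6.32 and 8.48. All 3 had nearly equal gefitinib libraries. Serpina11, a secreted serpin, was at 30.0 and 31.2 CPM with gefitinib and 9.56 and 14.9 with afatinib. Bpifc, a lipid-binding secreted protein, was at 32.4 and 44.7 CPM, then 13.4 and 18.9, and Cacna2d2, a calcium channel subunit, at 12.6 and 21.0, then 4.44 and 6.60. In each of these the rash skins lay above the untreated ones, whose highest value was 3.86 CPM. Lrrc30, a leucine-rich repeat protein, and Pdk4 were the exceptions. Lrrc30 had 20.5 and 12.6 CPM with gefitinib, 5.42 and 5.71 with afatinib and 22.7 and 42.1 untreated. Pdk4, the kinase that shuts off pyruvate oxidation in fasting and under glucocorticoids, had 170 and 178 CPM with gefitinib and 85.2 and 56.1 with afatinib, below untreated skin at 449 and 1399.

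**Figure D2:**
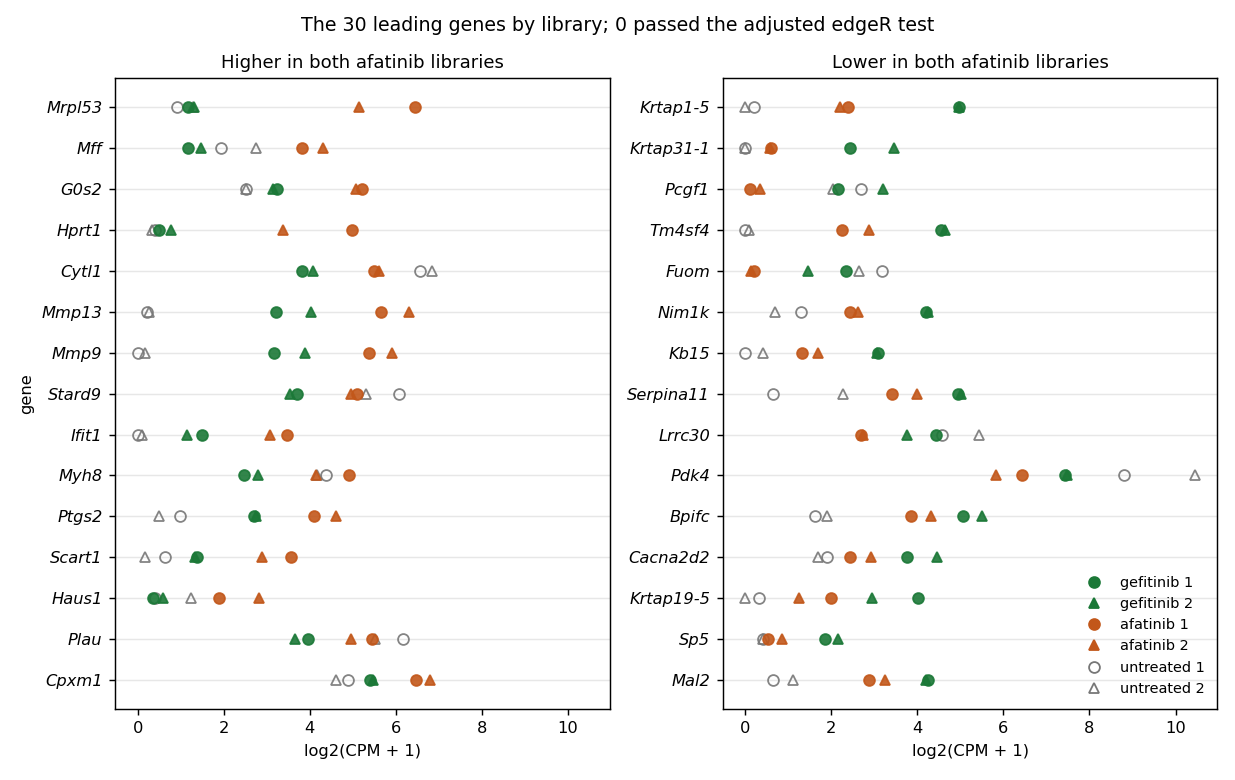
Level of the 30 leading genes in each library, as log2(CPM + 1); green symbols are gefitinib, orange afatinib and open grey untreated libraries, circles replicate 1 and triangles replicate 2. By the rule that chose them the orange and green symbols do not overlap in any row, and none of the 30 passed the adjusted edgeR test; untreated skin lies at the low end for Mmp13, Mmp9, Krtap1-5 and Tm4sf4 and at the high end for Cytl1, Plau and Pdk4.

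The receptors that the drugs bind had wide intervals, because both afatinib skins sat on opposite sides of the gefitinib skins. Egfr was at 36.9 and 24.4 CPM with gefitinib and 10.7 and 62.0 with afatinib, a log2 fold change of 0.25 (-1.58 to 2.08). Afatinib 1 had the lowest and afatinib 2 the highest Egfr level of the rash skins, and untreated skin had 14.7 and 12.3. Erbb2 followed the same order with 16.4 and 15.7 CPM, then 6.10 and 27.5 (0.07, -1.54 to 1.69). Erbb3, the partner without an active kinase, was at 54.9 and 58.9 CPM with gefitinib and 26.6 and 59.3 with afatinib (-0.40, -1.41 to 0.60). Erbb4 was not tested, with 0 and 0 counts under gefitinib and 0 and 2 under afatinib, where a count of 0 allows up to 3 counts. Signs of Egfr and Erbb2 depended on single libraries: without afatinib 2 their log2 fold changes were -1.52 and -1.40. Of 9 tested receptors and inhibitors, 0 had an unadjusted p under 0.05. Lrig1, a membrane protein that promotes degradation of ERBB receptors, was the member whose groups did not overlap, at 18.6 and 19.3 CPM with gefitinib and 33.9 and 24.1 with afatinib, both below the untreated 36.5 and 51.1. Errfi1, the cytoplasmic inhibitor that ERK signalling induces, was nearly level at 77.4 and 66.0 CPM, then 83.2 and 65.4, with an interval of -0.63 to 0.73 that excludes a 2-fold difference.

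The ligands of these receptors also gave 0 of 10 members at an unadjusted p under 0.05, with a median log2 fold change of 0.30 (0.246 to 0.535 without each library in turn) against 0.04 over all genes tested. Hbegf, a ligand shed from keratinocytes at wounds, was at 12.4 and 9.96 CPM with gefitinib and 21.6 and 16.2 with afatinib (0.76, -0.06 to 1.57). Ereg, or epiregulin, was low in all, at 0.408 and 0.556 CPM, then 1.05 and 0.803. Areg, or amphiregulin, overlapped at 6.39 and 2.58 CPM with gefitinib and 5.87 and 8.93 with afatinib, all above the untreated 0.161 and 0.339. Epgn, or epigen, had 20.5 and 11.1 CPM, then 17.1 and 12.004, the highest mean of the ligands.

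Genes that report ERK activity gave 0 of 18 members at an unadjusted p under 0.05. Their median was 0.15, and ran from -0.135 to 0.375 without each library in turn. For 4 of them the interval excluded 2-fold in both directions, near the 24.7% of all genes. Those 4 were the ERK phosphatase Dusp6, the pathway inhibitor Spry1, and the ETS factors Etv4 and Etv5. Dusp6 was at 37.8 and 25.5 CPM with gefitinib and 36.5 and 30.8 with afatinib, and Etv5 at 29.9 and 19.6, then 24.2 and 24.2. Fosl1, an AP-1 factor that ERK stabilises, was higher in both afatinib libraries with 4.94 and 4.70 CPM, then 6.93 and 9.68 (0.79, -0.21 to 1.78). Myc was lower in both with 61.1 and 61.9, then 41.9 and 50.6 (-0.41, -1.04 to 0.21). Among 14 immediate early genes 0 reached an unadjusted p under 0.05, Egr2 coming nearest at 16.4 and 19.7 CPM with gefitinib and 10.3 and 10.9 with afatinib.

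**Figure D3:**
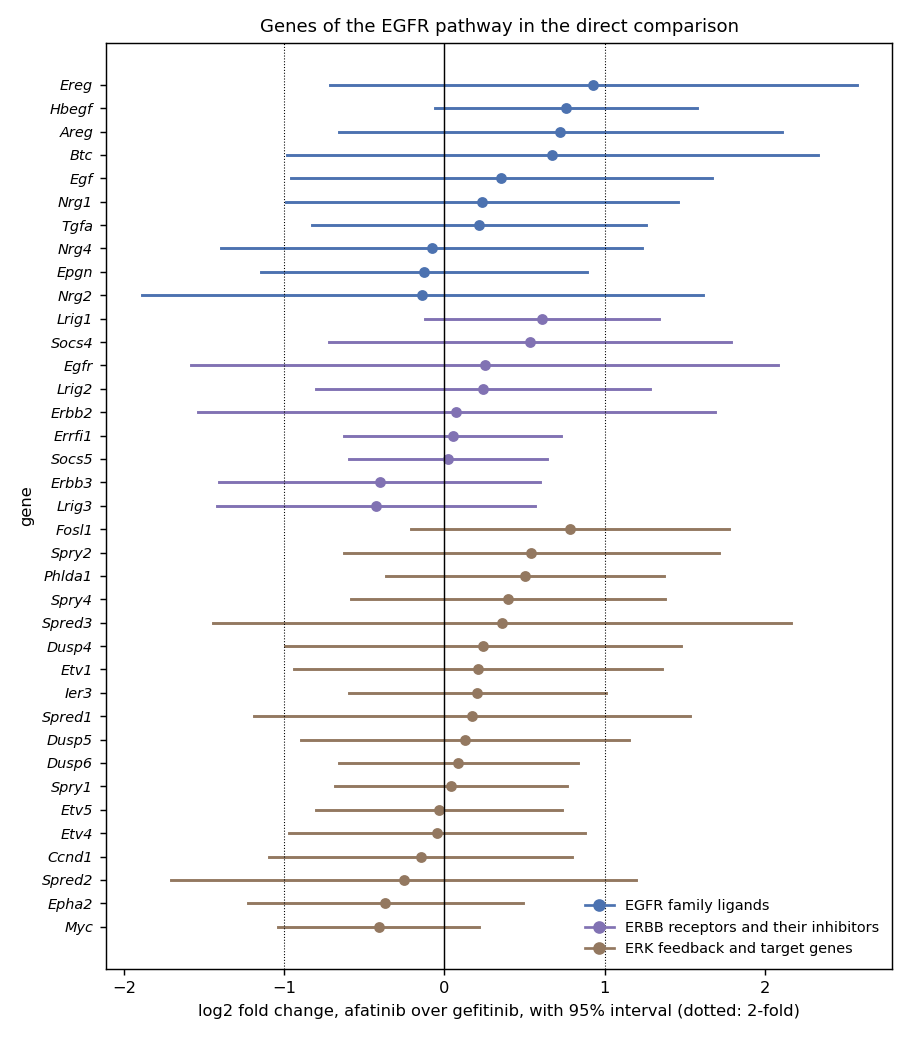
Log2 fold change of afatinib over gefitinib with its 95% interval from edgeR for the tested EGFR ligands (blue), ERBB receptors and their inhibitors (purple) and ERK feedback and target genes (brown); dotted lines mark 2-fold. Every interval crosses 0, those of Egfr and Erbb2 reach past 2-fold on both sides, and those of Errfi1, Dusp6 and Etv5 stay inside 2-fold.

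Interferon-induced genes were mostly higher in both afatinib skins. Of 21 tested, 15 had both afatinib libraries above both gefitinib libraries and 0 below, where 17.1% and 20% of all genes did, and 4 had an unadjusted p under 0.05, all higher with afatinib. These counts include the leading gene Ifit1, which was chosen for its small p. The median log2 fold change of the list was 0.91, and it stayed between 0.605 and 1.14 when each library was left out in turn. Ifit3, which starts within 100 kb of Ifit1 and belongs to the same antiviral family, was at 3.58 and 5.26 CPM with gefitinib and 11.4 and 13.5 with afatinib (1.49, 0.51 to 2.48). Irf7, the factor that amplifies interferon production, had 8.43 and 9.001 CPM, then 22.4 and 15.7 (1.12, 0.29 to 1.96). Gbp5, a guanylate-binding protein of inflammasome assembly, had 3.04 and 3.39 CPM, then 9.03 and 5.76. The most abundant member, Ifi27, was at 155 and 127 CPM with gefitinib, 351 and 180 with afatinib and 341 and 330 in untreated skin. The afatinib libraries thus overlapped untreated skin for Ifi27 but lay above it for Ifit1. Stat2 was level at 33.5 and 28.6 CPM, then 33.2 and 33.2. In bulk skin, fewer cells of a type and less RNA per cell cannot be told apart, here or for any list below. At an unadjusted p under 0.05, 2.66% of all genes tested were higher and 1.39% lower. These shares, and the 17.1% and 20% without overlap, are the reference for the counts of every list below.

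Antigen presentation genes of MHC class II showed the same order. Of 9 tested, 6 were higher in both afatinib libraries and 0 lower, 3 of them at an unadjusted p under 0.05. Of all genes, 17.1% were higher and 20% lower without overlap. The median of 0.78 was 1.35 without gefitinib 1 and 0.558 without gefitinib 2. Cd74, the invariant chain, was at 130 and 75.7 CPM with gefitinib and 297 and 191 with afatinib (1.25, 0.23 to 2.27). The class II chain RT1-Da had 52.2 and 36.3 CPM, then 117 and 72.1. Untreated skin overlapped afatinib skin and lay above gefitinib skin, with Cd74 at 473 and 247 and RT1-Da at 140 and 89.5. RT1-DMa, which helps load peptides, had 0.771 and 0.556 CPM, then 1.51 and 5.49. Macrophage markers were higher without overlap in 4 of 10, with summed levels of 438 and 235 CPM under gefitinib and 684 and 392 under afatinib, and their median of 0.516 ran from -0.0197 without afatinib 1 to 1.14 without gefitinib 1. Csf1r, the receptor that keeps macrophages alive, was at 24.7 and 13.2 CPM, then 55.6 and 27.0. Dendritic and Langerhans cell markers had 5 of 9 higher and 1 lower without overlap. Their summed level went the other way, from 160 and 155 CPM with gefitinib to 86.1 and 142 with afatinib. Cd86, a costimulatory ligand with little weight in that sum, was at 0.725 and 0.354 CPM, then 1.73 and 1.83. The part of these cell types in the class II values was not tested.

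Lymphocyte genes were scarce in every library. Of 12 tested T and NK cell markers 6 were higher without overlap and 0 lower, and their summed level was 22.4 and 18.1 CPM with gefitinib and 39.3 and 33.7 with afatinib. Cd247, the zeta chain of the T cell receptor, was at 0.408 and 0.303 CPM, then 1.28 and 1.92 (2.15, 0.53 to 3.78). Cd4 was at 5.58 and 2.28, then 15.1 and 5.80, and Cd8a at 1.77 and 1.52, then 5.27 and 2.45. Only 3 B and plasma cell markers could be tested, and their summed level was 1.22 and 1.37 CPM with gefitinib, then 5.95 and 2.05.

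JAK-STAT signalling genes had 9 of 18 members higher without overlap and 1 lower, beside 17.1% and 20% of all genes. Their median was 0.44 (0.166 without gefitinib 2, 0.778 without gefitinib 1), and 2 were under 0.05 unadjusted, both higher with afatinib. Il6st, the shared receptor chain of the IL-6 cytokines, was at 44.4 and 25.5 CPM with gefitinib and 57.4 and 72.7 with afatinib. Jak1, the kinase it uses, was at 74.8 and 60.3, then 116 and 105 (0.71, 0.02 to 1.39). Both were highest in untreated skin, at 89.0 and 114 for Il6st and 144 and 171 for Jak1. Stat3 had 155 and 109 CPM, then 161 and 158.

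Cytokines of the IL-1 and IL-36 family were higher without overlap in 5 of 11 tested members and lower in 0, with 3 under 0.05 unadjusted. Of all genes, 17.1% were higher and 20% lower without overlap. Il1b, the central inflammatory cytokine of the family, was at 8.57 and 18.4 CPM with gefitinib and 27.8 and 61.5 with afatinib (1.73, 0.43 to 3.03), against 1.05 and 0.745 in untreated skin. Il36g, which keratinocytes release, was at 5.98 and 5.51, then 8.73 and 14.4, and Il18 at 2.13 and 2.78, then 6.17 and 5.40. Il1rn, the antagonist that blocks their shared receptor, overlapped at 39.9 and 43.7 CPM, then 22.1 and 55.3. The median of the list was 0.37, lower than the log2 fold changes of Il1b, Il36g and Il18.

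CXC chemokines and their receptors direct neutrophils and lymphocytes. Of 13 tested members 4 were higher without overlap and 0 lower, beside 17.1% and 20% of all genes. Their median of 0.59 was 1.06 without gefitinib 2. Cxcr2, the neutrophil receptor, was low at 0.453 and 0.455 CPM with gefitinib and 0.903 and 2.77 with afatinib. Cxcr4 had 7.39 and 5.71 CPM, then 18.2 and 12.4 (1.22, 0.28 to 2.16), and its ligand Cxcl12 had 73.3 and 38.8, then 128 and 94.9. Cxcl14, a chemokine of resting epidermis, was the most abundant and overlapped at 349 and 194 CPM, then 200 and 354. The CC chemokines had 3 of 15 higher, near the 17.1% of all genes, and 1 lower and 0 under 0.05 unadjusted, with Ccl5 nearest at 0.997 and 0.657 CPM, then 3.16 and 1.65. Their median of 0.48 was -0.162 without afatinib 2.

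Neutrophil markers had 6 of 8 tested members higher without overlap and 0 lower, 3 of them at an unadjusted p under 0.05. Of all genes, 17.1% were higher and 20% lower without overlap. Mmp9, a leading gene also counted among the metalloproteinases, and Cxcr2, also counted among the chemokine receptors, are members. The counts of these lists are therefore not separate. The markers' median of 1.12 stayed between 0.953 and 1.76 without each library in turn. Their summed level was 839 and 1487 CPM with gefitinib and 2268 and 2014 with afatinib, and 9.52 and 8.20 in untreated skin. S100a8 and S100a9, the calprotectin subunits that keratinocytes under stress also make, held nearly all of that sum. S100a8 was at 434 and 747 CPM, then 1150 and 1099, and S100a9 at 385 and 715, then 1061 and 825. Csf3r, the receptor for the growth factor of neutrophils, was at 5.58 and 4.50 CPM, then 9.19 and 19.8 (1.52, 0.35 to 2.70). Mmp8, the neutrophil collagenase, did not follow, at 3.17 and 4.55 CPM, then 2.33 and 3.44. The granule genes Elane, Camp, Ngp and Np4 were too low to test, Np4 at 0 in all libraries.

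Antimicrobial proteins gave 4 of 10 members higher without overlap and 0 lower, beside 17.1% and 20% of all genes. Slpi, a protease inhibitor that kills bacteria, was at 8.93 and 13.5 CPM with gefitinib and 18.7 and 26.9 with afatinib, and Defb14, a beta-defensin, at 4.44 and 3.89, then 7.002 and 13.9. Neither exceeded 1.69 CPM in untreated skin. Among 8 tested mast cell genes, 5 were higher and 1 lower without overlap, with a median of 0.77. The chymase Cma1 was at 14.8 and 13.6 CPM, then 40.6 and 19.9. Kit, the receptor that mast cells share with melanocytes, was the only member with a log2 fold change below 0. It was at 47.1 and 65.5, then 22.0 and 33.2 (-1.03, -1.84 to -0.22).

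Matrix metalloproteinases and their relatives had 7 of 15 tested members higher without overlap and 0 lower, and 5 at an unadjusted p under 0.05, all higher with afatinib: Mmp13, Mmp9 and Plau from above, Mmp12 and Mmp10. Both counts include the leading genes Mmp13, Mmp9 and Plau, which were chosen for small p and for groups that did not overlap. Mmp12, the macrophage elastase, starts 83853 bases from Mmp13 and was at 6.26 and 11.5 CPM with gefitinib and 21.9 and 24.7 with afatinib (1.39, 0.43 to 2.35). Mmp10 was high in afatinib 2 alone, at 0.725 and 1.01 CPM, then 1.05 and 9.95. Mmp2, the gelatinase of fibroblasts, overlapped at 187 and 65.6, then 246 and 136, and the inhibitor Timp2 had 136 and 76.8, then 213 and 149. The list's median of 0.65 ran from 0.385 to 1.17 without each library in turn.

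Genes of the dermis and its vessels turned on gefitinib 2, which was low in them. Collagens and matrix genes summed to 11210 CPM in gefitinib 1 and 2389 in gefitinib 2, and to 14770 and 6854 with afatinib. Of 21 tested, 3 were higher without overlap, a share no larger than the 17.1% of all genes, and 0 lower. The median of 0.74 was 0.166 without gefitinib 2, 0.336 without afatinib 1 and 1.96 without gefitinib 1. Col1a1, the main collagen of skin, was at 2909 and 435 CPM, then 3877 and 1434, with 9211 and 4240 in untreated skin. Dcn, the collagen-binding proteoglycan decorin, did separate the groups at 575 and 368 CPM, then 1274 and 680. Endothelial markers had 8 of 11 higher without overlap and 0 lower with a median of 0.86, at summed levels of 403 and 147 CPM, then 531 and 468, and the median was 0.341 without gefitinib 2 and 1.67 without gefitinib 1. Tek, the angiopoietin receptor, was at 28.6 and 11.9 CPM with gefitinib and 48.2 and 50.5 with afatinib (1.28, 0.21 to 2.36), and Prox1, which specifies lymph vessels, at 0.907 and 0.607, then 1.88 and 3.21. Rgs5, a pericyte gene, was at 32.4 and 12.4 CPM, then 78.4 and 57.1. For Tek and Prox1 both untreated libraries were higher still, Tek at 87.7 and 85.5 and Prox1 at 3.71 and 4.88.

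Genes of the hair shaft and inner root sheath were low mainly in afatinib 1. Of 13 tested hair shaft keratins, 4 were lower in both afatinib libraries and 0 higher, beside 20% and 17.1% of all genes. The median of -0.71 was 0.176 without afatinib 1, -2.43 without afatinib 2, 0.0353 without gefitinib 1 and -1.12 without gefitinib 2. Krt35, a type I keratin of the cortex, was at 1194 and 873 CPM with gefitinib, 192 in afatinib 1 and 787 in afatinib 2. Krt85, its type II partner, was at 591 and 259, then 53.1 and 649. Krt39, another hair keratin, had both afatinib libraries low, at 1.86 and 2.58 CPM, then 0.301 and 0.714 (-2.07, -3.74 to -0.39). Inner root sheath genes were lower without overlap in 6 of 12, 2 of them under 0.05 unadjusted, with a median of -0.89 that was -0.373 without afatinib 1 and -1.77 without afatinib 2. Krt28 was at 183 and 231 CPM, then 56.2 and 117 (-1.25, -2.31 to -0.20), and Krt72 at 6.85 and 14.8, then 2.26 and 4.28. Krt71, the most abundant, was at 1651 and 1681, then 494 and 1325. Genes of the follicle stem cells and outer root sheath did not share this order. Of 11 tested, 3 were higher and 1 lower without overlap, and 2 were under 0.05 unadjusted, both higher with afatinib. Their median of 0.34 was 0.0183 without afatinib 2.

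Regulators of the hair matrix, the dividing cells at the base of the follicle, had 9 of 14 lower without overlap and 0 higher, 2 of them under 0.05 unadjusted. Shh, the hedgehog ligand of the matrix, was at 29.7 and 41.3 CPM with gefitinib and 12.2 and 20.4 with afatinib (-1.12, -2.01 to -0.23), and its target Gli1 at 49.4 and 101, then 24.7 and 47.5. Bmp4 was at 40.3 and 41.8, then 25.4 and 26.5 (-0.66, -1.27 to -0.05), close to the untreated 26.4 and 17.2. Wif1, a Wnt antagonist from a separate list of dermal papilla genes, was at 26.3 and 37.8 CPM, then 7.38 and 14.7 (-1.53, -2.57 to -0.49). It had the lowest log2 fold change of that list and was not typical of it. Of 11 tested dermal papilla genes, 1 was lower and 1 higher without overlap, and their median was 0.03. In Shh, Gli1, Bmp4 and Wif1 both afatinib libraries lay below both gefitinib libraries, and the part of hair content, whose shares of counts are given above, was not tested. Without afatinib 1 the median of the matrix list was -0.343 in place of -0.82, and without afatinib 2 it was -1.69.

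Genes of cell division had the same order. Of 17 mitosis genes 14 were lower in both afatinib libraries and 0 higher, and of 17 replication genes 13 and 0. Over all genes tested, 20% were lower and 17.1% higher without overlap. The medians of the 2 lists were -0.60 and -0.55. The differences were small in afatinib 2: without afatinib 1 the medians were -0.159 and -0.240, and without afatinib 2 they were -1.32 and -1.06. Cdk1, the kinase of mitotic entry, was at 75.7 and 79.2 CPM with gefitinib and 39.1 and 53.1 with afatinib (-0.75, -1.43 to -0.07), and Nusap1 of the spindle at 46.1 and 50.7, then 18.1 and 31.1. Mki67, the proliferation marker, was at 253 and 293, then 101 and 199, and 27.0 and 29.3 in untreated skin. Cdt1, which licenses replication origins, was at 26.5 and 23.4, then 11.97 and 14.1 (-0.94, -1.65 to -0.22). Among 11 cell cycle inhibitors and p53 targets 8 had intervals inside 2-fold, Cdkn1a among the most abundant at 135 and 184 CPM, then 168 and 134.

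Some genes of basal keratinocytes were higher in both afatinib skins. Of 11 tested, 3 had an unadjusted p under 0.05, all higher with afatinib, and 1 was lower without overlap. Krt14, the keratin of the basal layer, was at 511 and 420 CPM with gefitinib and 881 and 1508 with afatinib (1.36, 0.21 to 2.51). Its partner Krt5 overlapped at 1311 and 1412, then 1330 and 2043. Dst, which ties keratin to hemidesmosomes, was at 121 and 144 CPM, then 341 and 260 (1.18, 0.36 to 2.0). Dst is expressed in muscle too, and untreated skin had 448 and 521 CPM.

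Stress genes of keratinocytes went both ways, with 6 of 13 higher without overlap and 3 lower. Krt16, the keratin of injured epidermis, was at 13.3 and 6.37 CPM with gefitinib and 39.9 and 21.9 with afatinib (1.65, 0.45 to 2.84), and practically absent from untreated skin at 0.0806 and 0.135. Stfa2, a stefin that inhibits cathepsins, was at 38.4 and 33.9, then 71.7 and 81.9 (1.09, 0.45 to 1.72). Sprr1b, a precursor of the cornified envelope, was lower, at 25.7 and 21.7 CPM, then 10.6 and 15.3 (-0.87, -1.67 to -0.07). The median of 0.61 was -0.0326 without afatinib 2, 0.0527 without gefitinib 2 and 0.392 without gefitinib 1.

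In the cornified envelope list 0 of 12 reached an unadjusted p under 0.05, and Krt1 and Krt10 were at 93.8 and 116, then 110 and 121 CPM, and 104 and 136, then 90.7 and 176. Of 17 genes for barrier ceramides 7 had intervals inside 2-fold, 5 were higher without overlap and 2 lower. Alox12b, the lipoxygenase that links ceramides to the envelope, was the 1 under 0.05 unadjusted, at 1.36 and 1.01 CPM, then 3.39 and 3.35 (1.5, 0.23 to 2.77). Claudins and desmosome genes had 7 of 17 lower without overlap and 0 higher, beside 20% and 17.1% of all genes, with 0 under 0.05 unadjusted. Cldn4 was at 67.4 and 59.0 CPM, then 26.5 and 45.9, while the most abundant, desmoplakin (Dsp), was at 806 and 699, then 267 and 834. Their median of -0.50 was 0.00418 without afatinib 1 and -1.32 without afatinib 2.

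Cholesterol synthesis genes had 12 of 22 intervals inside 2-fold and 0 members at an unadjusted p under 0.05. Their median of -0.16 ran from -0.412 without afatinib 2 to 0.0239 without afatinib 1. Hmgcs1, an early enzyme of the pathway, was at 232 and 226 CPM with gefitinib and 163 and 246 with afatinib, and Srebf2, the factor that drives it, at 136 and 134, then 80.1 and 121. Sebaceous and fatty acid genes had 0 of 18 under 0.05 unadjusted, with Scd2, a desaturase, at 786 and 603, then 308 and 599. In retinoid metabolism, Stra6, the receptor for retinol-binding protein, had one of the steeper differences, at 177 and 136 CPM with gefitinib and 9.19 and 53.1 with afatinib (-2.33, -4.22 to -0.43) against 0.726 and 0.677 in untreated skin. Cyp26b1, which breaks down retinoic acid, was opposite at 11.6 and 13.6, then 17.9 and 41.6 (1.24, 0.14 to 2.35).

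Targets of the glucocorticoid receptor were lower in both afatinib libraries in 4 of 11 and higher in 1, beside 20% and 17.1% of all genes. All 3 under 0.05 unadjusted were lower. Pdk4, a leading gene chosen for its small p, is among them. Cebpd was at 93.5 and 80.9 CPM, then 47.6 and 30.7 (-1.16, -1.93 to -0.38), and Fkbp5, a chaperone of the receptor, at 46.7 and 88.3, then 16.2 and 38.0 (-1.31, -2.55 to -0.07). Both were higher in untreated skin than in afatinib skin, at 118 and 119 for Cebpd and 70.8 and 72.3 for Fkbp5. The median of the list, -0.40, was 0.0366 without gefitinib 2 and -0.137 without afatinib 1. Dusp1 did not follow, at 135 and 118 CPM, then 237 and 125.

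Genes of the circadian clock had 6 of 17 higher without overlap and 3 lower, beside 17.1% and 20% of all genes. All 3 under 0.05 unadjusted were higher. Bhlhe41, a repressor in the clock, was at 3.99 and 6.47 CPM with gefitinib and 20.9 and 10.4 with afatinib (1.58, 0.37 to 2.79), Hlf at 0.725 and 0.607, then 2.94 and 1.78, and Per3 at 21.9 and 29.3, then 59.0 and 34.8. The largest gaps were in afatinib 1, where the clock outputs Dbp and Nr1d1 reached 289 and 236 CPM, against 42.6 and 61.2 in afatinib 2 and 36.3 to 69.0 for Dbp and 28.3 to 64.5 for Nr1d1 under gefitinib. Times of tissue collection are not given in the labels. Transcripts of the mitochondrial genome had 0 of 13 separated in either direction, and nuclear respiratory chain genes 0 of 19, whose median of 0.30 was -0.386 without afatinib 1 and 0.728 without afatinib 2.

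Across all lists, 0 members passed the adjusted edgeR test. In 25 of the 59 lists with a tested member the mean log2 CPM of the afatinib libraries did not overlap that of the gefitinib libraries. In 39 the gap between both afatinib libraries was larger than the gap between the group means, which vary less than single libraries. The medians of 32 lists kept their sign when each of the 4 libraries was left out in turn.

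**Figure D4:**
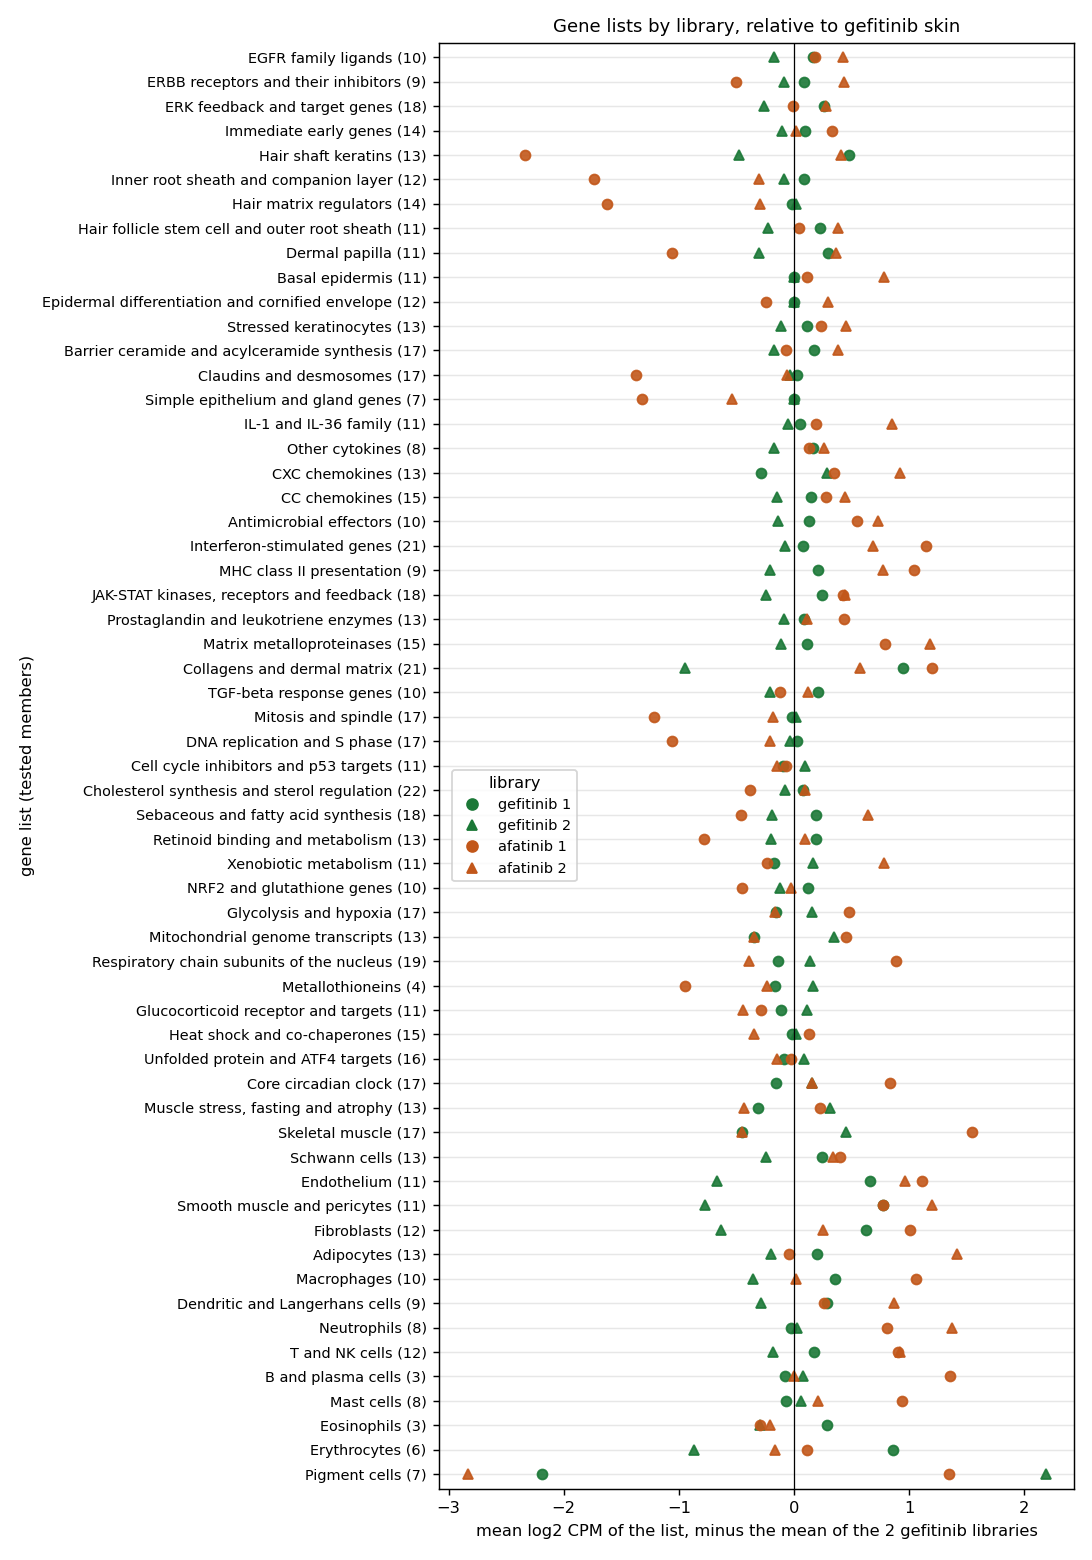
Mean log2 CPM of each gene list in each rash library, minus the mean of both gefitinib libraries; green symbols are gefitinib and orange afatinib, circles replicate 1 and triangles replicate 2, and the number of tested members follows each list's name. Interferon, MHC class II, metalloproteinase and neutrophil lists have both orange symbols right of both green ones, hair shaft, claudin and mitosis lists are left mainly through the orange circle (afatinib 1), and collagen and endothelial lists have the green triangle (gefitinib 2) at the left.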

How the data were processed

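RNA of rat back skin was sequenced in 6 libraries, 2 for each group. The deposited table holds whole read counts per gene that the authors did not scale, and totals of the 4 rash libraries lay between 17206456 and 20560892. The submitters' processing notes name featureCounts 1.5.0-p3, HISAT2 2.0.5 and DESeq2 1.16.1, without their settings. Not given in the sources used here are build, annotation and strand setting. Reads of overlapping and antisense genes therefore cannot be told apart. Positions are those of the deposited table. A deposited FPKM table was not used.

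The 4 rash libraries were filtered with filterByExpr, scaled by TMM and compared with edgeR 4.0.16's two-sided quasi-likelihood test in R 4.3.3, with 2 residual degrees of freedom and Benjamini-Hochberg adjustment over 16158 genes (threshold 0.05). Loci with no gene name stayed in library sizes and tests and were never named. Standard errors are the log2 fold change divided by the square root of F, from which 95% intervals were taken. Levels are TMM-scaled CPM, with untreated libraries put on the same scale, and a prior count of 2 entered the log2 CPM of libraries. The scripts were tested on simulated data.

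Named genes are the 15 per direction with the smallest unadjusted p among genes whose groups did not overlap and whose higher group averaged 1 CPM or more, without predicted, unnamed, ribosomal and small RNA loci and with at most 3 sharing leading letters. To these were added Egfr, Erbb2, Erbb3 and Erbb4 and, from each of 60 lists, the 3 smallest p and the 2 highest CPM. Other list members, and neighbours within 100 kb, were named after their values were seen, and 1 member that the rule names is not reported here. The comparison and the lists were chosen with earlier results of these data known. Of 832 distinct list symbols, 785 matched the table and 724 were tested. Alternatives were median-ratio (RLE) or no scaling, muscle genes removed, other filters, DESeq2 1.42.0, limma 3.58.1 voom, all 6 libraries, a replicate block, and each library left out.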

Additional observations from a re-analysis of the deposited data

How the results depend on the processing

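The finding of 0 genes past the adjusted test held with edgeR under median-ratio size factors, library size alone, muscle genes removed before scaling, a filter of at least 1 CPM in 2 libraries, all 6 libraries in the fit, and with limma-voom. It did not hold with DESeq2, which called 29 genes (17 higher and 12 lower with afatinib), nor in edgeR without a filter on low counts, where 13 genes passed (8 higher and 5 lower), all 13 of them among the 29. Leaving out each library in turn gave 0 to 2 genes (0 to 1 in each direction), the 2 without gefitinib replicate 2. Over all lists, 0 members passed in edgeR, 2 without the filter and 4 with DESeq2. The count at an unadjusted p under 0.05, 655, was 260 with library size alone and 1165 without the filter. With 1 library left out it ran from 301 without gefitinib replicate 2 to 3383 without afatinib replicate 2, where the lone library is assumed to vary like the others, and it was 1133 without afatinib replicate 1. No scaling moved the median of all genes by more than 0.1 on the log2 scale. The cause of these changes was not tested.

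The labels give both groups replicate numbers 1 and 2 with nothing that ties the same numbers together. Deviations of same-numbered libraries from their group means correlated at -0.178 across genes. With the number as a replicate block 0 genes passed and 544 were under 0.05 unadjusted. With the numbers crossed, a pairing chosen after seeing the data, 14 genes passed (10 higher and 4 lower, 3 of them list members) and 1215 were under 0.05 unadjusted.

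Of 137 genes named with a log2 fold change, 113 kept their sign in every setting, among them 30 of the 30 leading genes. Of the 59 list medians, 54 kept theirs in every setting that kept all libraries, and 32 without each library in turn. With library size alone the log2 fold change was -0.0682 for Errfi1, -0.0311 for Dusp6 and -0.079 for Spry1. Limma-voom gave -0.256 for Krtap1-3, -0.0825 for Egfr and -0.159 for Erbb2. With the replicate block it was -0.342 for Krtap1-3, -0.203 for Egfr, -0.288 for Erbb2 and 3.79e-05 for Etv5, and with the numbers crossed -0.313, -0.196 and -0.279 for the first 3 of these. With each library left out in turn, log2 fold changes that crossed 0 ran from -0.0358 to 0.582 for Krt5, -3.04 to 0.0892 for Krtap3-1, -2.39 to 1.37 for Krtap1-3, -1.52 to 1.01 for Egfr, -1.4 to 0.773 for Erbb2, -1.1 to 0.0558 for Erbb3, -0.137 to 0.213 for Errfi1, -0.488 to 0.378 for Epgn, -0.157 to 0.391 for Dusp6, -0.183 to 0.315 for Spry1, -0.474 to 0.304 for Etv4, -0.296 to 0.297 for Etv5, -0.0068 to 0.206 for Stat2, -0.918 to 0.402 for Il1rn, -0.44 to 0.505 for Cxcl14, -0.224 to 2.6 for Col1a1, -3 to 0.61 for Krt85, -0.292 to 0.176 for Cdkn1a, -0.011 to 0.307 for Krt1, -0.404 to 0.553 for Krt10, -1.5 to 0.146 for Dsp, -0.494 to 0.0996 for Hmgcs1, -0.0145 to 0.904 for Dusp1 and -0.308 to 2.46 for Dbp. Dbp crossed 0 without afatinib replicate 1.

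Each group has 2 libraries and the fit 2 residual degrees of freedom, and the smallest adjusted p was 0.467. Doses differ between the drugs, days of dosing and times of collection are not given, and counts of 0 allow up to 3 counts in a library. Intervals cover the spread of these 4 libraries only.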

Other observations

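Pigment cell genes were the clearest case of libraries that differed inside both groups. Tyr, the enzyme that starts melanin synthesis, was at 0.227 and 34.7 CPM in the gefitinib libraries, 11.9 and 0 in the afatinib libraries and 1.45 and 3.73 in untreated skin. Pmel, the fibre protein of the melanosome, followed it with 4.31 and 89.7 CPM, then 43.3 and 1.70, and 3.47 and 10.6 untreated. Tyrp1, a second melanin enzyme, had 0.861 and 58.9, then 27.7 and 0.357. Gefitinib 2 and afatinib 1 were thus high and their partners low in all 3, and 0 of the 7 tested pigment genes passed the adjusted edgeR test.

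Among the rash libraries, the summed level of fat cell genes was highest in afatinib 2. It was 1326 and 1008 CPM with gefitinib, 1178 and 1810 with afatinib, and 1748 and 2140 in untreated skin. Of 13 tested members, 3 were higher and 0 lower without overlap, beside 17.1% and 20% of all genes. Plin1, which coats the lipid droplet, was at 9.11 and 7.23 CPM with gefitinib and 7.45 and 76.8 with afatinib, and Cfd, the adipocyte protease adipsin, at 182 and 113, then 176 and 491. The median log2 fold change of the 13 tested members was 1.14, and -0.134 without afatinib 2 and 1.73 without afatinib 1.

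Metallothioneins, which bind zinc and copper, had a summed level above untreated skin in each rash library, with 855 and 1083 CPM under gefitinib and 424 and 992 under afatinib against 61.1 and 103 untreated. Schwann cell genes ran the other way, with summed levels of 276 and 165 CPM, then 349 and 243, against 1649 and 1119 in untreated skin. Of 4 tested metallothioneins, 2 were lower and 0 higher in both afatinib libraries, and 1 was lower at an unadjusted p under 0.05. Of 13 tested Schwann cell genes, 6 were higher and 0 lower without overlap, and 0 were under 0.05 unadjusted. Over all genes tested, 17.1% were higher and 20% lower without overlap. In each list 0 members passed the adjusted edgeR test, which no gene passed. These lists were chosen for description with their values in view.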
